A study of Mus musculus with 6 samples.

Results

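A set of 10 genes commonly used to mark fibroblasts, Dpt, Dcn, Lum, Pdgfra, Pi16, Mfap5, Fap, Thy1, Cxcl12 and Clec3b, were followed in RNA-seq of 6 colon tumors from mice. These are 10 of the 54532 genes in the deposited table, taken by their symbols, and each symbol had 1 row. Dpt had been singled out in an earlier analysis of these tumors by its difference between genotypes, and the other 9 genes were put beside it with that result known. The differences between genotypes of all 10 are therefore given as a description, with no p-value. The tumors were induced with azoxymethane (AOM) and dextran sodium sulfate (DSS), a carcinogen and a colitis agent that together give colitis-associated colon tumors, in mice on the C57BL/6N background. All mice carried loxP-flanked Tmem173, the gene encoding STING, in both copies and received tamoxifen after 3 cycles of AOM/DSS. There were 3 tumors from Tmem173fl/fl mice, which have no Cre (labelled WT), and 3 from Tmem173iΔmye mice, which in addition carry a tamoxifen-inducible Cre driven by the Lyz2 promoter (labelled CRE). Lyz2 is active in myeloid cells, so the deletion is aimed at these and not at fibroblasts. An age at the first AOM injection is stated for the groups given tamoxifen before tumors formed, and not separately for these groups. Whether each tumor came from a separate mouse is not given in the sources used here, so errors measure the spread between these samples. Values per tumor are given in the order of replicates 1, 2 and 3.

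Fibroblasts are the connective tissue cells that build and renew the extracellular matrix of the colon wall. They secrete collagens and the proteins that space and link collagen and elastic fibers, and they send signals such as chemokines to epithelial, vascular and immune cells. Fibroblasts of the outer, adventitial layer around vessels are known to express Pi16, those next to the epithelium to express much Pdgfra, and activated fibroblasts of tumors to express Fap. RNA was taken from whole tumors, so a difference in the number of fibroblasts and a difference in RNA per fibroblast cannot be told apart.

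Counts over all genes summed to 15329810 to 16533732 per tumor. Levels of 1 gene across tumors are given in CPM (counts scaled to library size, with TMM normalization). Tmem173 had 1705 to 2911 reads in the Tmem173fl/fl and 1953 to 2291 reads in the Tmem173iΔmye tumors, so the genotypes overlapped in the level of the targeted gene, and the count is no check of the deletion in myeloid cells. Y-linked genes were read 2655 to 3547 times in 3 tumors (replicate 1 of each genotype, and replicate 2 of Tmem173iΔmye) and at most 2 times elsewhere, so that 1 tumor of the first group and 2 of the second were from males. The epithelial markers (Epcam, Krt8, Krt18, Cdh1, Vil1, Cldn7 and Cdh17) summed to 4366 to 5486 FPKM per tumor. The 10 fibroblast genes summed to 62.7 to 98.4 FPKM. The 6 adipocyte markers summed to 1.06 to 3.10 FPKM in Tmem173fl/fl and 1.91 to 2.60 FPKM in Tmem173iΔmye tumors. Of these, Fabp4 and Cidec were read in every tumor, Cfd in 1 tumor, and Adipoq, Plin1 and Lep in none.

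FPKM (reads per kilobase of gene and of library size) allows levels to be compared between genes. Over the 6 tumors, the mean FPKM was 45.7 for Dcn, 10.2 for Pdgfra, 8.65 for Dpt, 5.87 for Thy1, 4.01 for Lum, 2.26 for Cxcl12, 0.749 for Clec3b, 0.419 for Pi16, 0.347 for Fap and 0.263 for Mfap5. Dcn encodes decorin, a small leucine-rich proteoglycan that binds collagen fibrils, and it alone made up 53.6% to 62.1% of the summed FPKM of the 10 genes in each tumor. Neighbours in this order were compared within tumors by an exact two-sided paired permutation test of the log2 ratio of FPKM, whose smallest possible p is 0.03125 with 6 tumors. Dcn was above Pdgfra in 6 of 6 tumors, by 3.64- to 7.39-fold (exact permutation p = 0.03125). Dpt was above Thy1 in 6 of 6 tumors, by 1.07- to 2.24-fold, and Cxcl12 above Clec3b in 6 of 6, by 2.04- to 5.23-fold (exact permutation p = 0.03125 for each). Adjusted over the 9 neighbour pairs by the Benjamini-Hochberg method, the p of these 3 pairs was 0.09375 from the exact permutation test. The order of Dpt and Thy1 rests on the gene lengths in the deposited table, 1724 and 2995 bases. In CPM, which leaves length out, mean Thy1 was above mean Dpt. The means were 13.5 against 9.58 in Tmem173fl/fl and 21.7 against 20.3 in Tmem173iΔmye tumors. In the other 6 pairs the order turned in 1 or 2 tumors. These were Pdgfra and Dpt, Thy1 and Lum, Lum and Cxcl12, Clec3b and Pi16, Pi16 and Fap, and Fap and Mfap5. Their unadjusted exact permutation p ran from 0.0625 to 0.71875. With 6 tumors, a pair whose order turned in 1 tumor cannot reach the smallest p, so equal levels are not read from this. Pi16, Fap and Mfap5, with 8 to 48 reads per tumor, stayed under the mean FPKM of 0.5 that the test over all genes required. The other 7 of the 10 genes passed it.

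**Figure D1:**
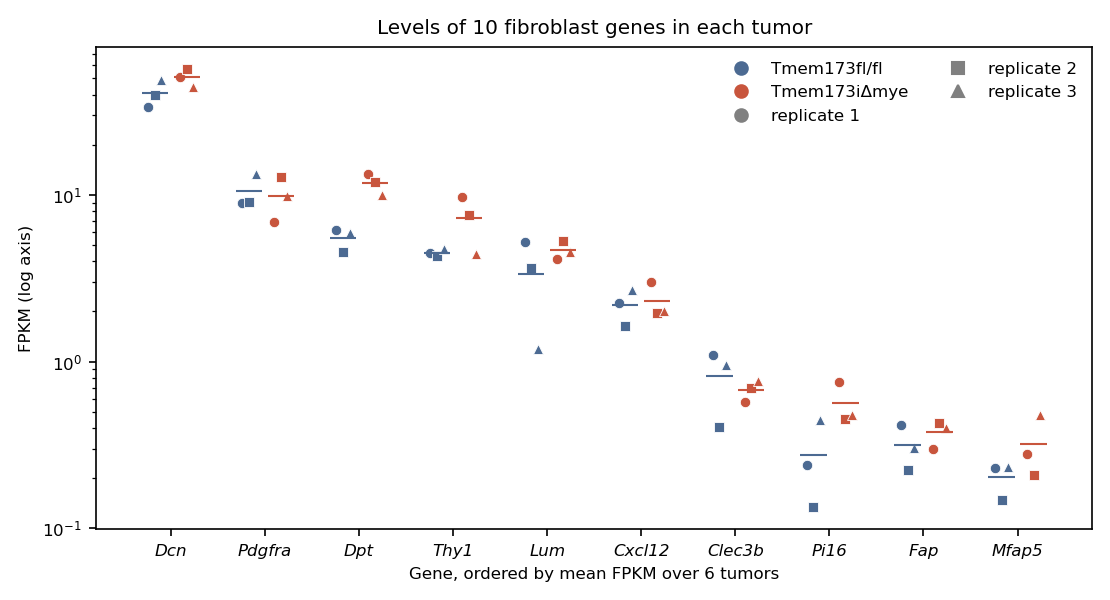
Level of each of the 10 fibroblast genes in FPKM (log axis) in the 3 Tmem173fl/fl (blue) and 3 Tmem173iΔmye (red) tumors, with genes ordered by their mean over the 6 tumors; symbols mark the replicate number and horizontal lines the group mean. Dcn lies above all others in every tumor, and only Dpt and Pi16 have all red points above all blue points.

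Dpt encodes dermatopontin, a small matrix protein that binds decorin and takes part in the assembly of collagen fibrils. In the GRCm38 build its gene spans 164796644 to 164824266 on the plus strand of chromosome 1. Its reads numbered 166, 118 and 170 in the Tmem173fl/fl tumors against 368, 328 and 271 in the Tmem173iΔmye tumors. Every Tmem173iΔmye tumor was above every Tmem173fl/fl tumor. Mean CPM of Dpt was 9.58 ± 1.54 (SD, n = 3) without Cre and 20.3 ± 2.99 (SD, n = 3) with it, a 2.12-fold difference. The log2 fold change for Tmem173iΔmye over Tmem173fl/fl, which is the direction of every fold change here, was 1.08 (SE 0.20). It stayed between 0.96 and 1.19 when each tumor was left out in turn, and it was 0.98 in a fit with Y-linked reads (present or not) as a covariate. Since Dpt was chosen by this difference in the same tumors, these values are no separate check of it. The spread of Dpt within groups, an SD of 0.21 on the log2(CPM + 1) scale, was close to the median over all genes tested of 0.23. An antisense gene, Gm32569, overlaps Dpt and had 2 reads over the 6 tumors.

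With edgeR's quasi-likelihood test over 16426 genes, 0 genes, or 0%, passed an adjusted p of 0.05, while 1008, or 6.14%, passed the same limit unadjusted. With DESeq2, 28 genes had an adjusted p under 0.05. The study's own threshold asks for a log2 fold change of 1 or more in size together with an unadjusted p under 0.05. It was passed by 349 genes, or 2.12%, of which 207 (1.26%) were higher in Tmem173iΔmye tumors and 142 (0.864%) lower. For 6.07% of all genes tested, every Tmem173iΔmye tumor was above every Tmem173fl/fl tumor in CPM, and for 6.47% every one was below. Among the 10 fibroblast genes, every Tmem173iΔmye tumor was above for 2, Dpt and Pi16, and for 0 was every one below. Since Dpt was chosen by this difference, nothing is read from this count. The log2 fold change was above 0 for 8 of the 10 genes, with a median of 0.39, and for 49.4% of all genes tested, with a median of -0.0042. All genes tested had a mean FPKM of at least 0.5, which Pi16, Fap and Mfap5 did not reach. Of the 7 members that did, 5 were above 0, with a median of 0.32. Dpt is in both counts, so nothing is read from them either.

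**Figure D2:**
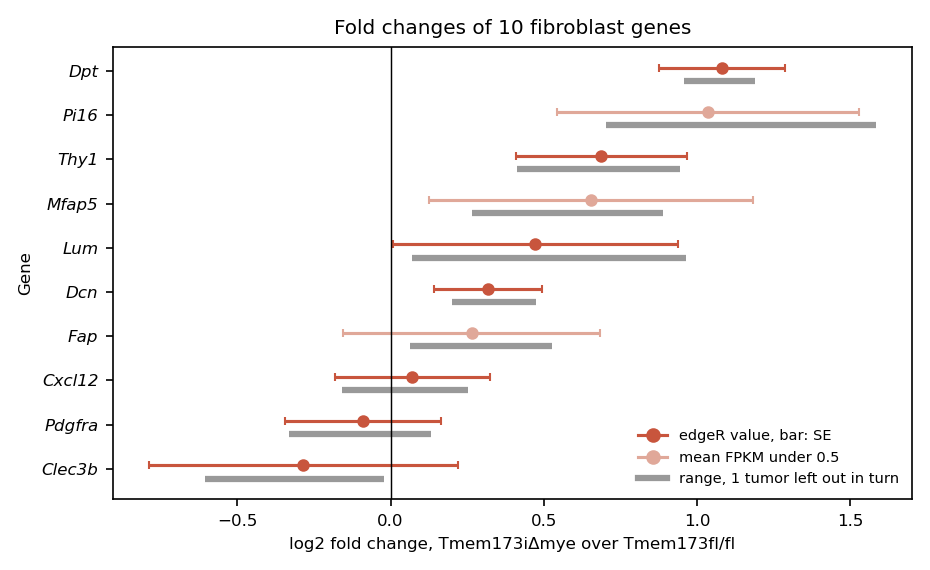
Log2 fold change of each gene for Tmem173iΔmye over Tmem173fl/fl tumors, with its SE from edgeR as a bar (n = 3 tumors per group) and, below it in grey, the range of values when each of the 6 tumors is left out in turn; pale points are genes under the mean FPKM of 0.5. The grey ranges of Pdgfra and Cxcl12 cross 0, and that of Dpt, the gene chosen by its difference in these tumors, is the narrowest.

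Pi16, which encodes peptidase inhibitor 16, had a log2 fold change of 1.04 (SE 0.49), close to that of Dpt but with a larger error. It lies on the plus strand of chromosome 17, from 29318877 to 29329413. It had 15, 8 and 30 reads in the Tmem173fl/fl and 48, 29 and 30 reads in the Tmem173iΔmye tumors. The reads overlapped between the groups and the CPM did so only just not, at 0.971, 0.531 and 1.79 against 3.02, 1.82 and 1.90. The exact Poisson 95% interval, which covers counting error only, ran from 3.45 to 15.8 for the tumor with 8 reads and from 35.4 to 63.6 for that with 48. Without Tmem173fl/fl replicate 3 the log2 fold change was 1.58, and without Tmem173fl/fl replicate 2 it was 0.70.

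Of the 10 genes, 4 had a start site in the RefSeq promoter table of GRCm38.p6. The 250 bases before the start are shown for Dpt and Pi16, whose fold changes were the largest of the 10, and for Pdgfra and Cxcl12, whose fold changes were the nearest to 0. They lie on the plus strand at chr1:164796413-164796662 (Dpt), chr17:29318632-29318881 (Pi16), chr5:75152001-75152250 (Pdgfra) and chr6:117168285-117168534 (Cxcl12), by the start sites of RefSeq, which for Dpt and Pi16 lie a few bases inside the gene as the deposited table has it. Capitals mark matches, on either strand, to 6 motifs. These are the TATA box TATAAA, the CCAAT box, the AP-1 motif TGANTCA, the TEAD motif GGAATG, the E-box form CAGCTG and a pair of GAAA repeats with 2 bases between them. Other forms of the E-box were not searched.
Dpt: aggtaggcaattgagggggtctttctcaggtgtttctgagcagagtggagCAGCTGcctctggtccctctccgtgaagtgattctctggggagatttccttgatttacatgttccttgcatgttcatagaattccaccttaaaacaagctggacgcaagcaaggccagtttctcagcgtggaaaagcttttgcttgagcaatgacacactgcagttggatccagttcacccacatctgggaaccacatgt
Pi16: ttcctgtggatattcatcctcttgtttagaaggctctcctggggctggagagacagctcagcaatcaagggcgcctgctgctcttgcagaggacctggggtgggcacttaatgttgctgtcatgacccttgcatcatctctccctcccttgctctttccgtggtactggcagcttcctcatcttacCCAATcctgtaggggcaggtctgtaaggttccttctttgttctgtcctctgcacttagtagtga
Pdgfra: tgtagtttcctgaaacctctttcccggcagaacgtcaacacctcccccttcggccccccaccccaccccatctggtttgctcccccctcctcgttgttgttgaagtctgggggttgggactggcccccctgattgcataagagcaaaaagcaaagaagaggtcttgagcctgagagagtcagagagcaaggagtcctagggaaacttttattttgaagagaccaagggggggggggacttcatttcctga
Cxcl12: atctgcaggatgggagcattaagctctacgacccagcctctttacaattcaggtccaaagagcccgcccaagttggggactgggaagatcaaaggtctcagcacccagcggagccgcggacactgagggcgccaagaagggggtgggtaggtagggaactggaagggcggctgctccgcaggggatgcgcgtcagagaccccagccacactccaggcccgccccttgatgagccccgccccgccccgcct
Dpt held 1 match, the E-box form CAGCTG, starting 200 bases before the start. This form was found in 13% of 32851 RefSeq promoter windows of the same length. Pi16 held 1 match, the CCAAT box, starting 64 bases before the start, which 33.8% of all windows had. The TATA box was found in 12.4% of all windows, the AP-1 motif in 6.75%, the TEAD motif in 12.6% and the GAAA pair (found in interferon response elements) in 2.98%. None of these 4 was found in any of the 4 windows shown. The share of G and C was 48.8% for Dpt, 52.4% for Pi16, 54.4% for Pdgfra and 64.4% for Cxcl12, against a median of 52.4% over all windows. A match is a description of these letters and says nothing of binding.

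The other genes of the structural matrix in the set were Dcn, Lum and Mfap5. Dcn lies on the plus strand of chromosome 10, from 97479609 to 97518143, and had 3069, 3456 and 4787 reads in the Tmem173fl/fl and 4731, 5325 and 4080 reads in the Tmem173iΔmye tumors. The groups overlapped, since Tmem173fl/fl replicate 3 was above Tmem173iΔmye replicate 3. Mean CPM of Dcn was 238 ± 44.3 (SD, n = 3) without Cre and 297 ± 37.7 (SD, n = 3) with it. On the log2 scale this is a difference of 0.32 (SE 0.18).

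Lum encodes lumican, a proteoglycan of the same family as decorin, and follows Dcn on the same strand of chromosome 10 at a distance of 46984 bases, from 97565128 to 97572703, with no listed gene wholly between them. It had 201, 133 and 49 reads in the Tmem173fl/fl and 161, 207 and 177 reads in the Tmem173iΔmye tumors. Tmem173fl/fl replicate 3 was the lowest of the 6 tumors for Lum, while for Dcn it was the highest of its group and for Pdgfra the highest of all. The ratio of Dcn to Lum in FPKM was 41.0 in that tumor and 6.40 to 12.3 in the other 5. The log2 fold change of Lum was 0.47 (SE 0.47), no larger than its error, and without Tmem173fl/fl replicate 3 it was 0.071. Its SD within groups was 0.68 on the log2(CPM + 1) scale, larger than that of 92% of the 500 genes nearest in level. Kera and Epyc, relatives of Lum, had at most 1 read in any tumor.

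Mfap5 encodes a glycoprotein of the microfibrils that carry elastin, and lies on the plus strand of chromosome 6, from 122505845 to 122529290. It had 13, 8 and 14 reads in the Tmem173fl/fl and 16, 12 and 27 reads in the Tmem173iΔmye tumors. Tmem173iΔmye replicate 3 had the most reads. Its exact Poisson 95% interval, 17.8 to 39.3, overlapped that of Tmem173iΔmye replicate 1, 9.15 to 26.0. The log2 fold change was 0.66 (SE 0.53), and without Tmem173iΔmye replicate 3 it was 0.27.

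Among the surface proteins, Pdgfra encodes the alpha receptor for platelet-derived growth factors and lies on the plus strand of chromosome 5, from 75152292 to 75198215. It had 1406, 1361 and 2260 reads in the Tmem173fl/fl and 1099, 2066 and 1555 reads in the Tmem173iΔmye tumors. Each group held tumors high and low in Pdgfra. The log2 fold change was -0.090 (SE 0.26), and it changed sign when Tmem173fl/fl replicate 3 (0.13) or Tmem173iΔmye replicate 1 (0.11) was left out. Counting error would give a coefficient of variation of about 2.44% at this depth, whereas the measured one was 24.3% in Tmem173fl/fl and 30.5% in Tmem173iΔmye tumors. The SD of Pdgfra within groups, 0.39, was larger than that of 93.6% of the 500 genes nearest in level.

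Thy1 encodes a membrane-anchored glycoprotein (CD90) that T cells of the mouse also carry, and lies on the plus strand of chromosome 9, from 44043384 to 44048579. It had 209, 192 and 237 reads in the Tmem173fl/fl and 464, 362 and 210 reads in the Tmem173iΔmye tumors. Tmem173iΔmye replicates 1 and 2 were above all others, and Tmem173iΔmye replicate 3 lay within the Tmem173fl/fl tumors. The log2 fold change was 0.69 (SE 0.28), and 0.41 without Tmem173iΔmye replicate 1. In the fit with Y-linked reads as a covariate it was 0.46. Both tumors with the most Thy1 had such reads, and so did Tmem173fl/fl replicate 1, where Thy1 was at 13.5 CPM, within the range of the tumors without them. Of the leukocyte markers (Ptprc, Cd3e, Cd79a, Csf1r, Lyz2, Itgam and Cd52), 5 of 7 were higher in Tmem173iΔmye tumors by fold change, and their summed level was 150 to 365 FPKM in Tmem173fl/fl and 149 to 291 FPKM in Tmem173iΔmye tumors. Cd3e marks T cells. Its level was 3.50, 1.06 and 1.85 CPM in the Tmem173fl/fl and 3.15, 4.02 and 1.97 CPM in the Tmem173iΔmye tumors, and the groups overlapped. The part of T cells in the level of Thy1 was not tested.

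Fap encodes a serine protease of the surface of activated fibroblasts and lies on the minus strand of chromosome 2, from 62500943 to 62574075. It had 37, 19 and 29 reads in the Tmem173fl/fl and 27, 39 and 36 reads in the Tmem173iΔmye tumors. The groups overlapped, and the difference of 0.26 on the log2 scale was smaller than its SE of 0.42.

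Cxcl12 and Clec3b were the other secreted members. Cxcl12, the chemokine that binds the receptor Cxcr4, lies on the plus strand of chromosome 6, from 117168535 to 117181367, and had 286, 201 and 371 reads in the Tmem173fl/fl and 388, 255 and 259 reads in the Tmem173iΔmye tumors. Its log2 fold change was 0.072 (SE 0.25), and it changed sign when Tmem173fl/fl replicate 2 (-0.10) or Tmem173iΔmye replicate 1 (-0.16) was left out. Clec3b, which encodes the plasminogen-binding protein tetranectin, lies on the plus strand of chromosome 9, from 123150946 to 123157432. It had 17, 6 and 16 reads in the Tmem173fl/fl and 9, 11 and 12 reads in the Tmem173iΔmye tumors. The Tmem173iΔmye tumors lay within the range of the Tmem173fl/fl tumors, and the log2 fold change of Clec3b was -0.28 (SE 0.50). It was -0.61 (SE 0.42) without Tmem173fl/fl replicate 2 and -0.022 (SE 0.58) without Tmem173fl/fl replicate 1. The exact Poisson 95% interval of its lowest read count, 6, ran from 2.20 to 13.1.

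The 10 genes did not order the tumors alike. Tmem173iΔmye replicate 1 was the highest tumor for 4 of them (Dpt, Thy1, Cxcl12 and Pi16) and the lowest for Pdgfra. Tmem173fl/fl replicate 2 was the lowest tumor for 7 genes and the highest for 0. Over the 45 pairs of the 10 genes, Pearson's r of log2(CPM + 1) across the 6 tumors ranged from -0.44 (Lum and Pdgfra) to 0.85 (Dpt and Pi16), with a median of 0.27. It was above 0 for 31 pairs. With the mean of each group taken away first, which leaves the variation within genotypes, the median was 0.19 and 25 pairs were above 0. The highest r was then that of Pi16 and Cxcl12, 0.97, and the lowest that of Dcn and Lum, -0.75. Next to the highest came Fap and Clec3b with 0.87, Dpt and Cxcl12 with 0.82, Dpt and Thy1 with 0.75, and Dpt and Pi16 with 0.71. Each r rests on 6 tumors that share libraries and depth between genes, and is a description only. Taking the group means away leaves fewer than 6 independent values.

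**Figure D3:**
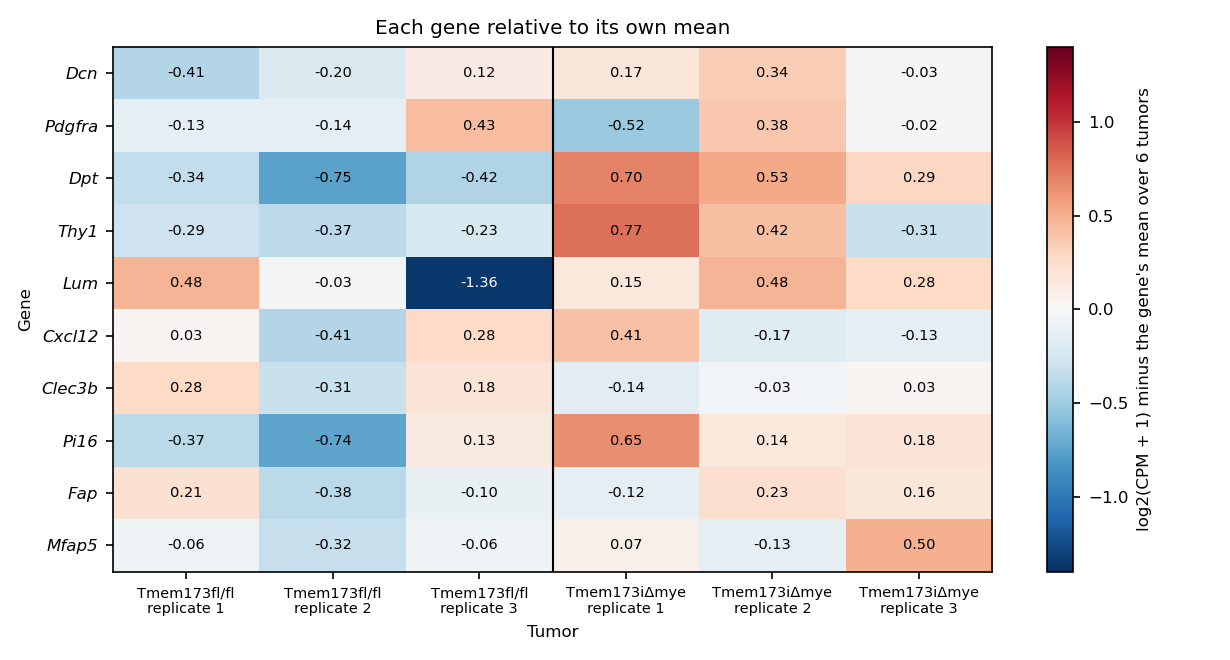
Level of each gene in each tumor as log2(CPM + 1) minus the mean of that gene over the 6 tumors (red, above its mean; blue, below), with Tmem173fl/fl tumors left and Tmem173iΔmye tumors right of the line. The Dpt row is below 0 in all 3 Tmem173fl/fl and above 0 in all 3 Tmem173iΔmye tumors, and the lowest value, -1.36, is that of Lum in Tmem173fl/fl replicate 3.

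The ratio of Dpt to Dcn in FPKM was 0.183, 0.116 and 0.120 in the Tmem173fl/fl and 0.263, 0.209 and 0.225 in the Tmem173iΔmye tumors, without overlap. The ratio of Dpt to Pdgfra was 0.437 to 0.686 and 0.923 to 1.95, also without overlap. The ratio of Dpt to Lum was 1.17, 1.26 and 4.93 in the Tmem173fl/fl and 3.25, 2.25 and 2.17 in the Tmem173iΔmye tumors, where the groups overlapped through Tmem173fl/fl replicate 3. These ratios compare genes within a tumor, use the difference by which Dpt was chosen, and were not tested.

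The genes most like Dpt over the 6 tumors, by Pearson's r of log2(CPM + 1), were Morn2, Asna1, Gm8508, Mfsd5 and Trmt10c, with r from 0.980 to 0.986. The 5 most like the mean of the 10 genes, each scaled to its own SD, were 9430081H08Rik, Idua, Agk, Tmem106a and Gm17197, with r from 0.981 to 0.997. Spearman's rho was 1 for each of the first 5 and 0.886 to 1 for the second 5. Without the 2 tumors farthest from the median of the compared measure, r was 0.957 to 0.993 for the first and 0.862 to 0.982 for the second. They were picked as the highest of all tested genes outside the set, over 6 tumors, so no p-value is given. None of them is on the lists of genes below. Likeness to Dpt includes the difference between genotypes by which Dpt was chosen. Leaving out the 2 farthest tumors, Tmem173fl/fl replicate 2 and Tmem173iΔmye replicate 1 for Dpt, does not take this difference away.

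Other genes were read from 8 lists of 120 genes, of which 103 passed the filter. Of these 103, 15 are on a list of partners and relatives of the set, which were not chosen as fibroblast genes. Genes of the other lists may be read from other cells of the tumor too, and their source was not tested. The shares below are therefore of listed genes, and not of genes particular to fibroblasts. None had an adjusted p under 0.05 in edgeR. The threshold of the study was passed by 5 genes that were higher in Tmem173iΔmye tumors, or 4.85%, beside 1.26% of all genes, and by 1 that was lower, or 0.971%, beside 0.864%. The median log2 fold change of the 103 genes was 0.16, and 77 were above 0. Every Tmem173iΔmye tumor was above every Tmem173fl/fl tumor for 12 of them, or 11.7%, beside 6.07% of all genes, and below for 4, or 3.88%, beside 6.47%. Without Tmem173iΔmye replicate 1, 0 genes passed in each of the adventitial, elastic microfibril, inflammatory and crypt-associated lists, which held all 5 of the higher genes. With Y-linked reads as a covariate, 0 passed in the elastic microfibril, inflammatory, crypt-associated and myofibroblast lists. The lists were chosen with earlier results of these data known, and their genes are not independent of each other. No test of the lists was made, and nothing is read from these shares.

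The log2 fold change was above 0 for 18 of 18 general fibroblast genes, beside 49.4% of all genes tested, with a median of 0.29. Values ran from 0.10 (Col1a1, SE 0.23, smaller than its error) to 0.78, and 0 passed the threshold of the study. Every Tmem173iΔmye tumor was above every Tmem173fl/fl tumor for 2 of the 18. Of the 18, Serping1, Sparc and Pcolce had the smallest p. Serping1 encodes an inhibitor of complement C1 (0.78, SE 0.28) and Sparc a collagen-binding protein (0.44, SE 0.17). Pcolce, which enhances procollagen processing, had 0.39 (SE 0.19). Of 8 small leucine-rich proteoglycans tested, relatives of Dcn and Lum, 6 were above 0 and 0 passed the threshold. Bgn, which encodes biglycan, was at 109, 112 and 116 CPM in the Tmem173fl/fl and at 202, 203 and 145 CPM in the Tmem173iΔmye tumors. The groups did not overlap, and Bgn differed by 0.70 on the log2 scale (SE 0.16, edgeR adjusted p = 0.742). Podnl1 had 0.84 (SE 0.32) and Ogn 0.39 (SE 0.23).

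Of 12 elastic microfibril genes, the partners of Mfap5, 11 were above 0 with a median of 0.37, and 1 passed the threshold. This was Mfap4, at 12.2, 6.11 and 7.35 CPM in the Tmem173fl/fl and 32.1, 14.6 and 13.5 CPM in the Tmem173iΔmye tumors, or 1.23 on the log2 scale (SE 0.40, edgeR adjusted p = 0.742). Fbln5, a fibulin needed for elastic fibers, had 0.57 (SE 0.21) and Emilin1 0.43 (SE 0.17). Of 15 adventitial fibroblast genes, the company of Pi16, 10 were above 0 and 5 below, with a median of 0.19. The matrix gene Efemp1 passed the threshold, at 4.27, 4.05 and 4.0 CPM in the Tmem173fl/fl and 12.6, 8.35 and 6.79 CPM in the Tmem173iΔmye tumors, or 1.17 on the log2 scale (SE 0.29, edgeR adjusted p = 0.742). Sema3c, a guidance molecule, lay the other way, at 192, 293 and 269 CPM against 107, 158 and 152 CPM, with a log2 fold change of -0.86 (SE 0.21). Igfbp5 had 0.96 (SE 0.35).

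Of 11 myofibroblast and cancer-associated fibroblast genes, 7 were above 0 and 4 below, with a median of 0.021. Thbs2, a matricellular thrombospondin, passed the threshold on the lower side, at 155, 258 and 173 CPM in the Tmem173fl/fl and 121, 58.6 and 98.1 CPM in the Tmem173iΔmye tumors, or -1.08 on the log2 scale (SE 0.30, edgeR adjusted p = 0.742). Without Tmem173fl/fl replicate 2 or without Tmem173iΔmye replicate 2, 0 genes of this list passed. Tagln had -0.51 (SE 0.35) and Pdpn 0.41 (SE 0.31). Of 11 inflammatory fibroblast genes, 8 were above 0, with a median of 0.53. The acute phase gene Saa3 (1.67, SE 0.61) and the cytokine gene Il11 (1.66, SE 0.67) passed the threshold, with overlapping groups. Saa3 was at 286 CPM in Tmem173iΔmye replicate 1 and at 31.1 to 64.4 CPM in the other 5 tumors. The chemokine gene Ccl2 had 1.05 (SE 0.52). Of 13 crypt-associated genes, 8 were above 0, with a median of 0.11. Grem1, an inhibitor of bone morphogenetic proteins, passed the threshold with 1.08 (SE 0.45), again with overlapping groups, while Wnt5a had 0.45 (SE 0.14) and Bmp7 0.37 (SE 0.15). Of the 15 partners and relatives of the 10 genes, such as the platelet-derived growth factors, 9 were above 0, with a median of 0.033, and 0 passed. Pdgfd had -0.86 (SE 0.37), Pdgfb -0.36 (SE 0.20) and Tgfbr1 -0.31 (SE 0.18).

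**Figure D4:**
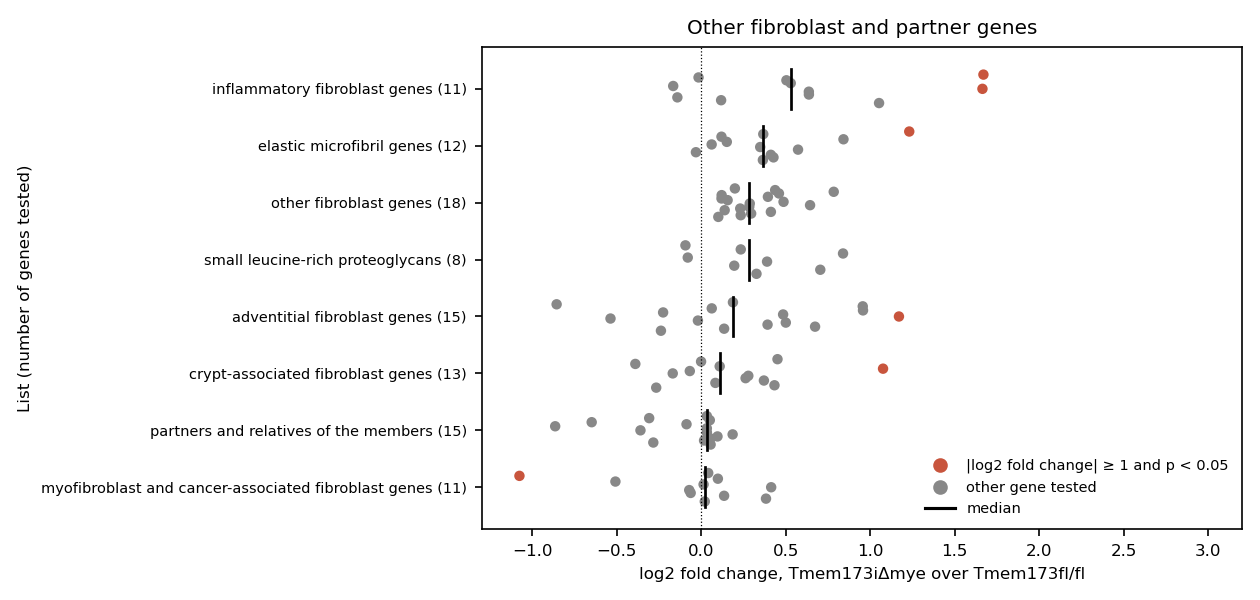
Log2 fold change for Tmem173iΔmye over Tmem173fl/fl tumors of each tested gene of the 8 lists, with the list's median as a black line; red marks genes past the study's threshold (a change of 1 or more in size, unadjusted p under 0.05). All 18 general fibroblast genes lie right of 0, and the 5 red points on the right and 1 on the left belong to 5 lists.

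Markers of other mesenchymal and vascular cells were set beside these values. For smooth muscle (Myh11, Des, Actg2, Cnn1, Smtn, Synpo2 and Lmod1), the median log2 fold change was -0.50 and 1 of 7 markers was above 0. Their summed level was 71.8 to 101 FPKM in Tmem173fl/fl and 40.0 to 89.6 FPKM in Tmem173iΔmye tumors. Pericyte markers summed to 21.2 to 24.2 and 21.5 to 30.7 FPKM and endothelial markers to 13.9 to 15.3 and 14.6 to 20.8 FPKM, with overlap in each case. The log2 fold change was above 0 for 3 of 5 pericyte markers tested (median 0.109) and 6 of 7 endothelial markers (median 0.245). It was also above 0 for 7 of 7 epithelial markers (median 0.092), so values above 0 were not particular to fibroblast genes. Des, which encodes the filament protein desmin, passed the threshold of the study on the lower side with -1.01 (SE 0.39), with overlapping groups. Of the mesothelial markers, Msln alone was tested, with a log2 fold change of -0.84 (SE 0.41). It was at 75.9 CPM in Tmem173fl/fl replicate 3 and at 20.7 to 32.7 CPM in the other 5 tumors. Upk3b, Wt1, Lrrn4 and Upk1b had mean levels of at most 0.200 FPKM. The part of these cells in the levels of the 10 genes was not tested.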

How the data were processed

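RNA-seq of whole tumors was analysed from the table of the whole series, with 3 tumors labelled WT and 3 labelled CRE. The deposited table gives, for each tumor, read counts as the authors obtained them and FPKM values the authors scaled by gene length and size factors. The submitters' processing notes name CASAVA 1.8, fastp, HISAT2 2.0.5, featureCounts 1.5.0-p3 and DESeq2 1.20.0, and GRCm38 (mm10). Neither the kit (NEBNext Ultra) nor the counting is stated to use strand, so reads of antisense genes cannot be told apart. The table also holds the authors' own group means, fold changes and p-values, which were not used.

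The test was the quasi-likelihood test of edgeR 4.0.16 in R 4.3.3, on counts, with TMM factors and genotype alone in the model. P-values were adjusted by Benjamini-Hochberg over 16426 genes whose mean FPKM reached 0.5. SE is the absolute log2 fold change over the square root of F. Pi16, Fap and Mfap5, under this filter, were fitted with all 30939 genes that had any count. Scripts were tested on simulated data. The members and lists were chosen with earlier results of these data known. The text names all 10 members, up to 3 genes of each list with the lowest p, and the 5 genes most like Dpt and the 5 most like the members' mean; Kera, Epyc and single marker genes were chosen after their values were seen, as background. Alternatives were median-of-ratios scaling, DESeq2 1.42.0, no filter, a minimum mean FPKM of 1, limma 3.58.1 on log2(FPKM + 1) and log2(FPKM + 0.1), the replicate number as a block, Y-linked reads as a covariate and leaving out each tumor. Depth was 15329810 to 16533732 counts per tumor, and intervals cover counting error only. One list of marker genes is not reported here.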

Additional observations from a re-analysis of the deposited data

How the results depend on the processing

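The log2 fold changes of the 10 genes were computed under up to 14 alternatives, 136 values in all. They had the sign of the reported value in 132, and the 4 exceptions were Pdgfra and Cxcl12 with 1 tumor left out. The median over the 10 genes was 0.30 to 0.61 when each tumor was left out, and 7 to 9 of the 10 were above 0. Its lowest value over all alternatives was 0.21, with limma on log2(FPKM + 1). For the low genes Pi16 and Mfap5, limma on log2(FPKM + 1) gave 0.30 and 0.13, where the pseudocount is larger than their levels. Over all genes, the number with an adjusted p under 0.05 was 28 with DESeq2 and 6 without a filter, and 0 to 1 when each tumor was left out. The number past the threshold of the study was 872 without a filter, 131 with limma on log2(FPKM + 1), 211 with Y-linked reads as a covariate, and 218 (without Tmem173fl/fl replicate 3) to 636 (without Tmem173fl/fl replicate 1) when each tumor was left out. The cause was not tested, other than that more genes were tested without a filter. A mean FPKM of at least 1 left out 4 of the 10 genes, so their median was not computed. Taken as deviations from the group mean, tumors of equal number correlated across genes with r of 0.31, 0.0085 and 0.15, and Tmem173fl/fl replicate 2 correlated best with Tmem173iΔmye replicate 3 (0.22), so the numbers were not taken as pairs. A replicate block gave 377 genes past the threshold of the study and 0 by adjusted p, with a median of 0.47 over the 10 genes. The number of neighbour pairs in 1 order in every tumor was 3 with CPM per kilobase and 3 to 4 when each tumor was left out. Depth limits the genes with few reads: counting error alone would give Clec3b a coefficient of variation of 27.7% and 30.6% in Tmem173fl/fl and Tmem173iΔmye tumors, and Pi16 one of 23.8% and 16.7%, where the measured spread of Pi16 was larger, at 58.3% and 29.8%.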
